A study of Mus musculus with 9 samples.

Results

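The miR-23 and miR-30 families were followed across 3 doses of alpha particles in osteoblastic cells, because both families are known to lower Runx2. Their 7 main arms were taken by name from the 1881 mouse miRNAs of the array: mmu-miR-23a-3p and mmu-miR-23b-3p, and mmu-miR-30a-5p, mmu-miR-30b-5p, mmu-miR-30c-5p, mmu-miR-30d-5p and mmu-miR-30e-5p, written below without the species prefix. Cells grown out of the bone marrow of male C57BL/6 mice aged 8 weeks were cultured for 7 days. They were then kept for 7 days in a medium with β-glycerophosphate, ascorbic acid 2-phosphate and dexamethasone, which drives marrow stromal cells towards osteoblasts. One group was not irradiated (0 Gy), and the others received 0.5 Gy or 1 Gy at 0.22 Gy per minute, with 3 one-colour arrays per dose. All 3 groups shared the strain, the sex, the age, the culture and the differentiation medium. The culture was not sorted in any step the labels give. The labels do not tell whether the arrays of 1 dose come from different mice or cultures, so a p-value here speaks of the spread among these samples, which could be technical. When RNA was taken after irradiation is not stated in the labels.

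A miRNA is a short RNA that guides a protein complex to matching messenger RNAs and lowers their output, and its seed near the 5′ end does most of the pairing. Runx2 is the transcription factor that commits mesenchymal cells to the osteoblast lineage. miR-23a is transcribed with miR-27a and miR-24 from a cluster that Runx2 itself represses, and it lowers Runx2 in turn. Members of the miR-30 family lower Runx2 and Smad1, a transducer of bone morphogenetic protein signals, during osteoblast differentiation. The arrays measured miRNAs, so the level of Runx2 is not part of these data.

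The sequences are given to show which members share a seed and how close the paralogs are. RefSeq (build GRCm38.p6) gave a mature sequence for 4 of the 7 members. Each is written 5′ to 3′ with the seed, bases 2 to 8, in capitals.
miR-23a-3p: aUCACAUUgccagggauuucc
miR-30a-5p: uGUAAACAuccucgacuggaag
miR-30c-5p: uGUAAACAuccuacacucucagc
miR-30e-5p: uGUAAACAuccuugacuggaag
The partners made from the miR-23 clusters follow, to show that they carry other seeds.
miR-27a-3p: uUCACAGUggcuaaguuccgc
miR-27b-3p: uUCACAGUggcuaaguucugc
miR-24-3p: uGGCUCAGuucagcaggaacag

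miR-30a, miR-30c and miR-30e share their seed and their first 12 bases. Counted from the 5′ end, miR-30a and miR-30e differ at 1 of 22 positions (C13U), while miR-30c differs from each of them at 5 of the 22 positions compared. A miRNA family is defined by its shared seed. Signal from 1 member on the probes of another was not tested.

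The mature strand of miR-23a lies at chr8:84208563-84208583 on the plus strand (GRCm38.p6), with Mir27a and Mir24-2 within 10 kb and in no other RefSeq gene. Mir23b lies on chromosome 13 within the span of the protein-coding gene Aopep, with Mir27b and Mir24-1 within 10 kb. miR-30a-5p lies at chr1:23272274-23272295 on the plus strand. miR-30c-5p is made from Mir30c-2 (chr1:23291714-23291736, plus strand) and from Mir30c-1 (chr4:120769584-120769606, minus strand). miR-30e-5p lies at chr4:120772660-120772681 on the minus strand, and both Mir30e and Mir30c-1 are within the span of Nfyc. Mir30b and Mir30d lie within 10 kb of each other on chromosome 15.

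The arrays numbered 1 stand apart, and they decide how the members can be read. The additive error that the scanner software estimated was 19.4 (0.5 Gy) and 11.2 (1 Gy) on the first arrays of the irradiated doses, against 1.60 to 2.83 on the other 7. The lowest probe that passed as detected had a processed signal of 96.3 and 55.5 on those high-background arrays, against 7.52 to 13.8 on the others. Array 1 of 0 Gy had a low background but a scaling factor of 0.519, against 0.931 to 1.23 on the other 8 arrays. It also detected the most miRNAs, 234, against 144 to 223 on the others. Slide 1 held arrays 1 and 3 of every dose, slide 2 held array 2 of 0 Gy, and slide 3 held array 2 of 0.5 Gy and of 1 Gy. No spot was saturated.

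Of the 7 members, 4 were detected on at least 1 array and 3 on none. miR-23a-3p and miR-23b-3p were detected on 6 arrays, which were arrays 2 and 3 of each dose. miR-30a-5p and miR-30d-5p were detected on 5 arrays, the same ones without array 2 of 0 Gy. miR-30b-5p, miR-30c-5p and miR-30e-5p had 0 spots well above background on any array. By this rule no member was detected on any array numbered 1. These patterns are not peculiar to the families: 11 miRNAs, miR-23a-3p included, were detected on exactly its arrays, and 18, miR-30a-5p and miR-30d-5p included, on exactly theirs. A miRNA counts as detected where at least 50% of the spots of 1 of its probes are well above background.

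**Figure D1:**
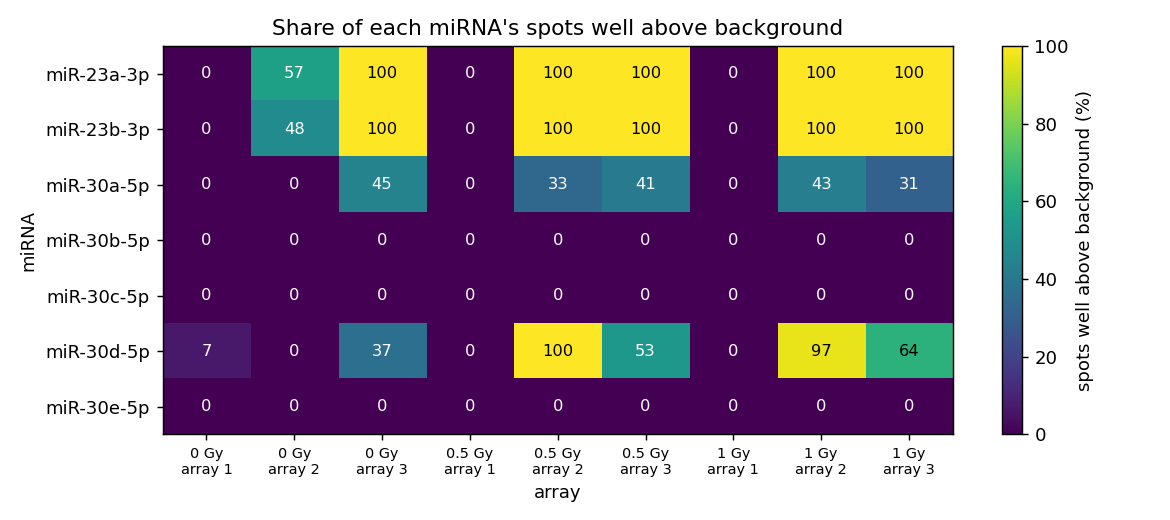
Percent of each miRNA's spots, over all its probes, that were well above background (colour and printed value) for the 7 members (rows) on the 9 arrays (columns). The arrays numbered 1 are dark for 6 of 7 members, with 7% of spots for miR-30d-5p on array 1 of 0 Gy, and the rows of miR-30b-5p, miR-30c-5p and miR-30e-5p are at 0 throughout.

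The brightest probe of miR-23a-3p shows where the detection limit falls. Its processed signal before scaling was 4.50 ± 1.84, 22.8 ± 3.56 and 89.4 ± 5.09 (SD over 15 spots of 1 array) on arrays 1, 2 and 3 of 0 Gy. On array 1 of 0.5 Gy the same probe read 26.6 ± 5.53, below that array's detection limit of 96.3. On arrays 2 and 3 of 0.5 Gy it read 93.0 ± 5.44 and 77.5 ± 4.73. At 1 Gy it read 27.6 ± 1.92 (13 spots) on array 1, 123 ± 7.14 (14 spots) on array 2 and 88.8 ± 5.37 (15 spots) on array 3. The signal on the high-background arrays was thus under their own limits and above those of the other 7.

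**Figure D2:**
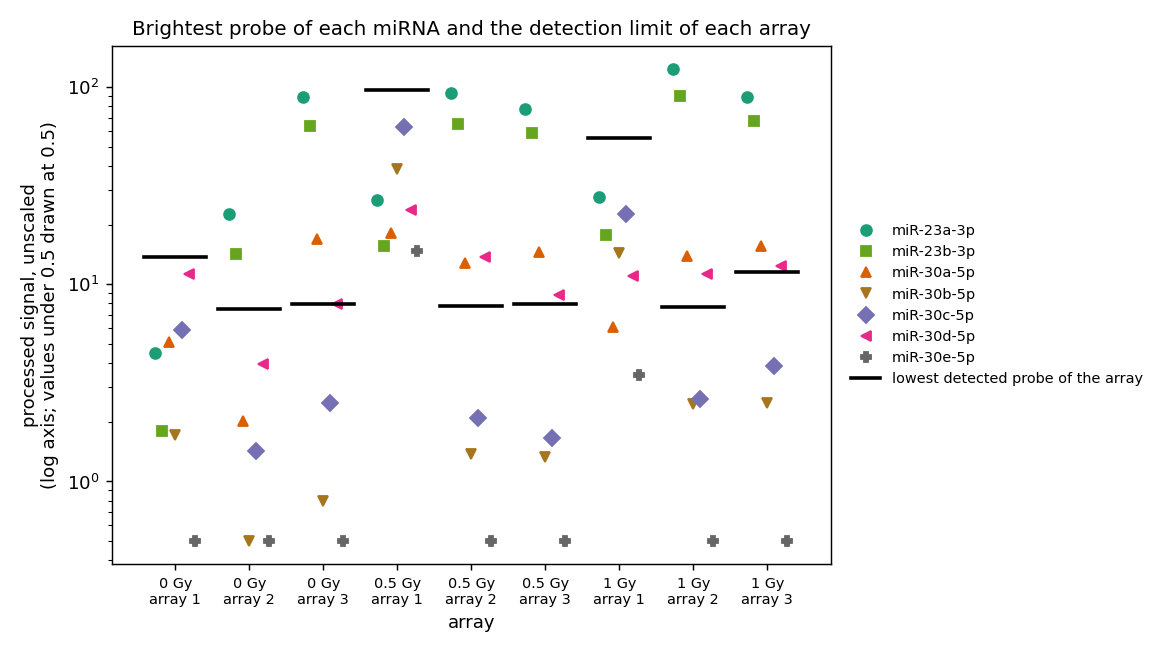
Processed signal before scaling (log axis, values under 0.5 drawn at 0.5) of each member's brightest probe, chosen over arrays 2 and 3 of every dose, on the 9 arrays. The black bars give the lowest detected probe of each array, 96.3 and 55.5 on the high-background arrays and 7.52 to 13.8 elsewhere. All members lie under the bar on the arrays numbered 1, while miR-23a-3p and miR-23b-3p lie above it on the other 6 arrays.

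Levels are given on the log2 scale of summed, scaled probe signals, with a floor at 3.52 where values have no order. miR-23a-3p stood at the floor, at 5.01 and at 6.88 on arrays 1, 2 and 3 of 0 Gy. It stood at 5.42 (not well above background), 7.13 and 6.70 at 0.5 Gy, and at 5.34 (not well above background), 7.20 and 6.68 at 1 Gy. The 3 unirradiated arrays thus spanned almost the whole range of the miRNA, and array 3 of 0 Gy lay above array 3 of both irradiated doses. The means were 5.14 ± 1.68 at 0 Gy, 6.42 ± 0.89 at 0.5 Gy and 6.40 ± 0.96 at 1 Gy (SD, n = 3).

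miR-23b-3p, the paralog from the chromosome 13 cluster, followed the same course. It stood at the floor, 4.29 and 6.41 at 0 Gy. At 0.5 Gy it stood at the floor on array 1 and at 6.63 and 6.32 on arrays 2 and 3, and at 1 Gy at 4.20 (not well above background), 6.79 and 6.30. The low arrays were arrays 1 and 2 of 0 Gy and array 1 of the irradiated doses, so the groups overlapped. Means were 4.74 ± 1.50, 5.49 ± 1.71 and 5.76 ± 1.38 at 0, 0.5 and 1 Gy (SD, n = 3).

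miR-30a-5p lay at most 1.90 log2 units above the floor. It was at the floor on arrays 1 and 2 of 0 Gy and at 4.85 on array 3. At 0.5 Gy it stood at 5.42 (not well above background), 4.67 and 4.70, and at 1 Gy at 3.70 (not well above background), 4.58 and 4.52. The 4 irradiated arrays that detected it lay within a narrow range, and the unirradiated array that detected it lay above all of them. Means were 3.96 ± 0.77, 4.93 ± 0.43 and 4.27 ± 0.49 at 0, 0.5 and 1 Gy (SD, n = 3).

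miR-30d-5p was the member whose unirradiated and irradiated arrays did not overlap. At 0.5 Gy and again at 1 Gy, every irradiated array lay above every 0 Gy array for 1.35% of the 446 miRNAs detected anywhere. Without the high-background arrays the shares were 3.91% and 5.59% of 179. At 0 Gy miR-30d-5p stood at the floor on arrays 1 and 2 and at 4.01 on array 3. At 0.5 Gy it stood at 5.84 (not well above background), 5.04 and 4.16, and at 1 Gy at 4.75 (not well above background), 4.51 and 4.60. Means were 3.68 ± 0.29, 5.01 ± 0.84 and 4.62 ± 0.12 at 0, 0.5 and 1 Gy (SD, n = 3). The separation rests in part on the scaling of array 1 of 0 Gy, where 30 of 30 spots were positive and significant by the scanner software, 2 of 30 were well above background, and the software called the miRNA detected. Without scaling that array stood at 4.28, above the 4.03 of array 3 of 0.5 Gy, and under the lowest 1 Gy array at 4.46.

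**Figure D3:**
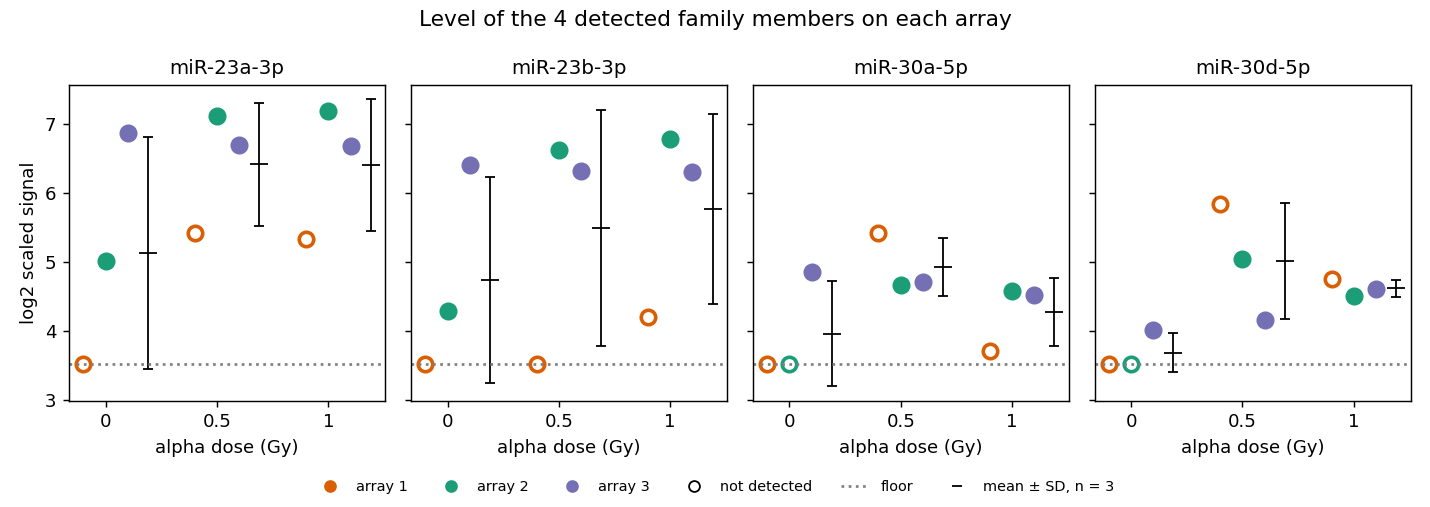
Level (log2 scaled signal) of the 4 detected members by dose, 1 point per array, filled where detected and open where not; the bars are mean ± SD over 3 arrays and the dotted line is the floor at 3.52. At 0 Gy miR-23a-3p runs from the floor to 6.88 and miR-23b-3p from the floor to 6.41, and array 3 of 0 Gy lies among the irradiated arrays 2 and 3 for both.

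The other members of the miR-30 family had no measured level. miR-30b-5p, miR-30c-5p and miR-30e-5p were at the floor on the 7 arrays of low background. On array 1 of 0.5 Gy they read 6.60, 7.29 and 5.46, and on array 1 of 1 Gy 5.31, 5.92 and 3.55, with no spot well above background. The brighter miR-30c-5p probe there gave 70.3 ± 6.67 on array 1 of 0.5 Gy (SD over 15 spots), still under that array's limit of 96.3. The scanner software's own gene call had miR-30c-5p detected on 1 array, array 1 of 0.5 Gy, and miR-30d-5p on 6, the 5 named above and array 1 of 0 Gy. No fold is given for these 3 members, since every dose was below background.

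The first question was whether any member differed between 0.5 Gy and 0 Gy, or between 1 Gy and 0 Gy. Both comparisons use the same 3 unirradiated arrays. The planned test over all 9 arrays covered the 134 miRNAs detected on every array of at least 1 dose, and 0 of the 7 members passed that filter. In that test 0% of the 134 were called in each comparison of doses by limma at an adjusted p under 0.05, and at an unadjusted p under 0.05 there were 2 for 0.5 Gy, 4 for 1 Gy and 0 for 1 Gy against 0.5 Gy.

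Without the 2 high-background arrays, 179 miRNAs passed the filter and 4 members were among them. All 4 passed through the irradiated arrays alone, among 46 miRNAs that did so, and they were chosen for being detected there and their joint direction is not support for a change. None of the 4 was called. The background was 0% of 179 called in each comparison (limma, adjusted p under 0.05), and 0, 9 and 4 at an unadjusted p under 0.05 for 0.5 Gy against 0 Gy, 1 Gy against 0 Gy and 1 Gy against 0.5 Gy.

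At 0.5 Gy, the mean of miR-23a-3p was 1.78 ± 0.85 (SE) log2 units above 0 Gy, with a 95% interval of -0.15 to 3.70 and a limma adjusted p of 0.828 (unadjusted 0.0661). The difference of miR-23b-3p was 1.73 ± 0.78 (adjusted p = 0.828, unadjusted 0.0529, limma). For miR-30a-5p it was 0.72 ± 0.53 and for miR-30d-5p 0.92 ± 0.47, with the same adjusted p. These means compare 2 irradiated with 3 unirradiated arrays. The median difference over the 179 miRNAs was 0.026, and 51.4% of them had the higher mean at 0.5 Gy.

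At 1 Gy, miR-23a-3p was 1.80 ± 0.85 and miR-23b-3p 1.81 ± 0.78 above 0 Gy, both with a limma adjusted p of 0.590. The unadjusted p of miR-23b-3p was 0.0456, one of the 9 under 0.05, which were 5.03% of the 179. miR-30a-5p was 0.59 ± 0.53 above (adjusted p = 0.601, limma), and miR-30d-5p 0.87 ± 0.47 (adjusted p = 0.590, limma). The median over the 179 was -0.022, and 48% had the higher mean at 1 Gy. The intervals reached from -0.12 to 3.72 for miR-23a-3p and from -0.19 to 1.93 for miR-30d-5p, so a several-fold difference and none at all both lay inside for miR-23a-3p.

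Between the irradiated doses the means were close. In the fit that takes the arrays as unpaired, the intervals were wide. miR-23a-3p differed by 0.024 log2 units (95% interval -2.08 to 2.13) and miR-23b-3p by 0.071 (-1.86 to 2.00) for 1 Gy against 0.5 Gy. miR-30a-5p differed by -0.13 (-1.44 to 1.18) and miR-30d-5p by -0.044 (-1.21 to 1.12). The limma adjusted p of all 4 was 0.999. Same-numbered arrays of these doses deviated together, so the differences within pairs are given too. The part of shared background and slides in that was not tested. miR-23a-3p differed by -0.082, 0.069 and -0.021 in pairs 1, 2 and 3, and miR-23b-3p by 0.68, 0.16 and -0.022, where pair 1 is made of the high-background arrays. On the scaled levels miR-30a-5p was lower at 1 Gy in all 3 pairs (-1.72, -0.082 and -0.18), and miR-30d-5p in 2 of 3 (-1.09, -0.53 and 0.45). Without scaling miR-30a-5p was higher at 1 Gy in pairs 2 and 3. With the replicate number as a block in the arrays of these doses alone, over the 446 miRNAs detected on at least 1 array, the difference of miR-23a-3p was -0.011 (95% interval -0.32 to 0.30) and that of miR-30a-5p -0.66 (-2.15 to 0.83). There 0% of the 446 were called and 3 had an unadjusted p under 0.05 (limma). Over pairs 2 and 3 alone, miR-23a-3p differed by 0.024 (-0.84 to 0.89) and miR-30a-5p by -0.13 (-0.998 to 0.74), and 6 of 179 miRNAs (3.35%) were called, none a member. With 1 residual degree of freedom per miRNA, limma pooled the variance over miRNAs, and all 4 members had the same SE of 0.44. These intervals and calls thus do not measure the spread of each miRNA over its own arrays.

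In the fit without the high-background arrays, none of the 4 tested members had a limma adjusted p under 0.05 for any comparison of doses. With so few arrays, that does not show that the doses are alike. miR-30b-5p, miR-30c-5p and miR-30e-5p were not tested.

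For a single member, an exact two-sided permutation test over the arrays cannot go below 0.1 with 3 against 3 arrays. miR-30d-5p reached that smallest value, 0.1, for 0.5 Gy and for 1 Gy against 0 Gy by the exact permutation test over 9 arrays. It was at the floor on arrays 1 and 2 of 0 Gy and not well above background on array 1 of the irradiated doses. Without scaling, array 1 of 0 Gy (4.28) lay above array 3 of 0.5 Gy (4.03), so the 0.5 Gy separation was lost. Among the 446 miRNAs detected on at least 1 array, 1.35% had every 0.5 Gy array above every 0 Gy array, and 1.35% every 1 Gy array above. Without the high-background arrays those shares were 3.91% and 5.59% of 179, and the exact permutation p of miR-30d-5p was 0.2, again the smallest possible. Every 1 Gy array of miR-30a-5p lay below every 0.5 Gy array (exact permutation p = 0.1), which held for 0.448% of the 446 and, without the high-background arrays, for 15.6% of the 179. On array 1 of both doses miR-30a-5p was not well above background. Without scaling the groups overlapped, with 5.18, 4.43 and 4.58 on arrays 1, 2 and 3 of 0.5 Gy and 3.52, 4.68 and 4.63 on those of 1 Gy. The exact permutation p of miR-23a-3p and miR-23b-3p was between 0.3 and 0.8 for the comparisons with 0 Gy over 9 arrays.

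With all 9 arrays and every one of the 446 miRNAs in the fit, again 0% were called in each comparison. The difference at 0.5 Gy was 1.28 ± 0.94 (SE) for miR-23a-3p, 0.75 ± 1.16 for miR-23b-3p, 0.97 ± 0.48 for miR-30a-5p and 1.33 ± 0.44 for miR-30d-5p, each beside a median over the 446 of 0.84. miR-30d-5p had an unadjusted p of 0.0191, one of 4 under 0.05 (0.897% of the 446), and a limma adjusted p of 0.535. At 1 Gy the differences were 1.27 ± 0.94, 1.02 ± 1.16, 0.31 ± 0.48 and 0.94 ± 0.44 in the same order, beside a median of 0.80. Where the floor is met on the other arrays, a value on a high-background array enters this fit as a higher level whether or not the probe was above background.

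**Figure D4:**
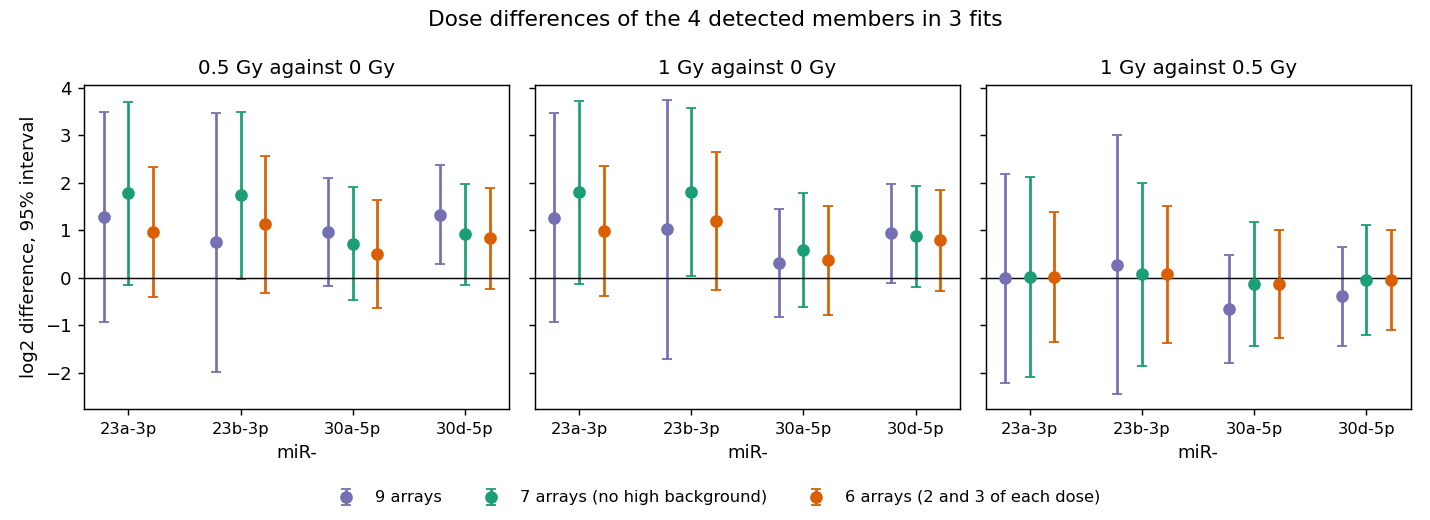
Log2 difference between doses with its 95% interval (limma) for the 4 detected members, in the fit of 9 arrays over 446 miRNAs, of 7 arrays over 179 and of arrays 2 and 3 of each dose over 180. Points for both comparisons with 0 Gy lie above 0, the intervals cross 0 except for miR-30d-5p at 0.5 Gy over 9 arrays and miR-23b-3p at 1 Gy over 7, and no adjusted p is under 0.05 in any of the 3 fits.

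The unirradiated arrays decided the size of the miR-23 differences. Without array 3 of 0 Gy, the fit without the high-background arrays called miR-23a-3p (2.65 at 0.5 Gy, adjusted p = 0.0246, and 2.67 at 1 Gy, adjusted p = 0.0281, limma) and miR-23b-3p (2.57, adjusted p = 0.0187, and 2.64, adjusted p = 0.0202). There, 28 of 179 miRNAs (15.6%) were called for 0.5 Gy and 30 (16.8%) for 1 Gy, while miR-30a-5p and miR-30d-5p were not called (adjusted p of 0.0754 or above). That fit sets both doses against arrays 1 and 2 of 0 Gy, on the first of which no member was detected. Without array 1 of 0 Gy instead, the miR-23a-3p difference was 0.97 at 0.5 Gy and 0.99 at 1 Gy, and none of the 4 was called. The adjusted calls of miR-23 thus depended on leaving out 1 control array.

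With array 1 of every dose left out, 180 miRNAs were tested and 0% were called in each comparison. The differences at 0.5 Gy were 0.97 for miR-23a-3p, 1.12 for miR-23b-3p, 0.50 for miR-30a-5p and 0.83 for miR-30d-5p (adjusted p = 0.981, limma). At 1 Gy they were 0.99, 1.19, 0.37 and 0.79 in the same order (adjusted p of 0.669 or above, limma). These differences rest on 2 arrays a dose.

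The slides divide the arrays further. With the slide as a block in the fit without the high-background arrays, the differences at 0.5 Gy were 1.48 ± 1.18 (SE) for miR-23a-3p, 1.31 ± 1.08 for miR-23b-3p, 0.49 ± 0.82 for miR-30a-5p and 0.63 ± 0.77 for miR-30d-5p, with an adjusted p of 0.993. Within slide 1, with its 6 arrays, the mean of miR-23b-3p differed by -0.045 at 0.5 Gy from 0 Gy and was 0.28 higher at 1 Gy. Each irradiated mean there takes in array 1, a high-background array where no member was detected. On array 1 of 0.5 Gy miR-23b-3p was at the floor, and on array 3 of that dose it stood at 6.32. Within the same slide miR-23a-3p was 0.86 and 0.81 higher, miR-30a-5p 0.88 higher and then -0.071, and miR-30d-5p 1.23 and 0.91 higher, for 0.5 and 1 Gy. Slide 2 held 1 array and slide 3 no unirradiated array, so they give no value against 0 Gy. Against 0 Gy, the block fit rests on slide 1, with arrays 1 and 3 of 0 Gy and array 3 of each irradiated dose.

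The partners made from the miR-23 clusters are the other arms of these transcripts, the opposite strands of the miR-23 hairpins included. Of 9 partner arms, 3 were detected on at least 1 array and none was called in any comparison. miR-24-3p, made by both clusters, stood at the floor, 4.40 and 6.57 at 0 Gy. At 0.5 Gy it stood at the floor, 6.32 and 6.54, and at 1 Gy at the floor, 6.19 and 6.28, and it was detected on the same 6 arrays as miR-23a-3p. Its array 2 of 0 Gy was low, as for miR-23, and its array 3 of 0 Gy was the highest of all 9. Its difference without the high-background arrays was 1.60 ± 0.80 (SE) at 0.5 Gy and 1.40 ± 0.80 at 1 Gy (adjusted p = 0.828 and 0.590, limma).

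miR-27b-3p, from the miR-23b cluster, was detected on 5 arrays, at 4.56 on array 3 of 0 Gy, 4.33 and 4.37 on arrays 2 and 3 of 0.5 Gy, and 4.56 and 4.19 on those of 1 Gy. These levels differed little between doses, but array 3 was the only unirradiated array among them. On arrays 1 and 2 of 0 Gy miR-27b-3p stood at the floor. Its difference was 0.49 ± 0.49 (SE) at 0.5 Gy and 0.51 ± 0.49 at 1 Gy without the high-background arrays (adjusted p = 0.828 and 0.601, limma). miR-27a-3p, from the miR-23a cluster, was detected on 3 arrays and was at 3.81 or lower wherever it was detected. It passed neither filter.

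The list of minor arms of miR-30 and the paralog miR-30f has 7 entries, and 1 of them was detected. miR-30c-1-3p, the opposite strand of the Mir30c-1 hairpin, was detected on 2 arrays, at 6.07 on array 1 of 0 Gy and at the floor on array 2 of 1 Gy (a scaled signal of 10.7), and it was at the floor on the others. miR-30c-5p was not detected on that array.

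Of 10 other miRNAs known to target Runx2, 2 were detected and none passed either filter. miR-204-5p, which favours fat over bone in marrow stromal cells, was detected on the high-background arrays alone, at 8.47 (0.5 Gy) and 7.32 (1 Gy). Its close relative miR-211-5p was detected on 4 arrays, with 4.87, 9.88 and 8.69 on the first arrays of 0, 0.5 and 1 Gy and 5.48 on the third array of 1 Gy. On arrays 2 and 3 of 0 and 0.5 Gy both were below detection.

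Over the 3 unirradiated arrays, the detected mesenchymal markers were highest on array 3, as miR-23 was. That was not particular to them: the haematopoietic miR-223-3p was detected on array 3 alone of these arrays. Of 6 mesenchymal miRNAs, 4 were detected: miR-125b-5p on 9 arrays, miR-214-3p on 8, miR-199a-3p on 6 and miR-199a-5p on 5, and miR-143-3p and miR-145a-5p on none. The summed scaled signal of the detected ones ran from 80.5 to 1160 over the 0 Gy arrays, 351 to 1103 at 0.5 Gy and 488 to 1113 at 1 Gy. miR-125b-5p stood at 5.51, 7.35 and 9.29 on arrays 1, 2 and 3 of 0 Gy, the order seen for miR-23a-3p, and between 8.18 and 9.34 on the irradiated arrays. Over arrays 2 and 3 of all doses its ranks did not follow those of miR-23a-3p (Spearman's rho -0.029, 6 arrays). Of 7 haematopoietic miRNAs only the myeloid miR-223-3p was detected, on the same 5 arrays as miR-30a-5p, and the list summed to 0 to 43.2 at 0 Gy, 0 to 37.3 at 0.5 Gy and 0 to 35.4 at 1 Gy. Both endothelial arms of miR-126a were detected on no array. In such bulk samples fewer cells of a type and less RNA per cell cannot be told apart, and the part of cell makeup or RNA amount in the miR-23 differences was not tested.

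The miRNAs whose levels were most like those of miR-23 were of several kinds. They were let-7a-5p, let-7f-5p and miR-15b-5p, the cluster partner miR-24-3p, and the mesenchymal markers miR-125b-5p and miR-199a-3p. Among 141 other miRNAs detected on at least 6 arrays, the highest Pearson r with miR-23a-3p over the 9 arrays was that of let-7a-5p (0.981), miR-15b-5p (0.977) and miR-125b-5p (0.955). For miR-23b-3p it was that of miR-199a-3p (0.991), let-7f-5p (0.984) and miR-24-3p (0.973). Over arrays 2 and 3 alone, 6 arrays, these were 0.954, 0.916 and 0.941, and 0.970, 0.978 and 0.938. The values are descriptions: the arrays share their scaling, those numbered 1 lie apart, and array 2 of 0 Gy is low in all of them, with Spearman's rho over the 6 arrays between -0.029 and 0.54 for 5 of the 6 pairs and 1 for let-7f-5p.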

How the data were processed

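Each deposited file holds the spot intensity values of 1 Agilent mouse miRNA array (Cy3), and per the file headers Agilent Feature Extraction 11.5.1.1 had detrended the intensity and subtracted background, with no normalization between arrays. The deposited flags (other values, 0 or 1) mark spots well above background, outliers and saturation. The series-wide table was not used here, as its 9 value columns match no sample title. The members and the lists were chosen with earlier results of these data known.

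Of the members' 1890 spots, 41 marked as outliers were dropped. Probes are means of spots, and miRNAs are sums of probes. Arrays were scaled on the 75th percentile of the 45 probes detected on all 9 arrays, with a floor of 11.5 units (the 1st percentile of detected values). Doses were compared with limma 3.58.1 (R 4.3.3), two-sided, with Benjamini-Hochberg adjustment over all miRNAs in the fit and a threshold of 0.05. The code was tested on simulated data. Named are all 7 members, listed miRNAs detected on at least 1 array, and the 3 miRNAs most like each member detected on 6 or more. Alternatives changed the scaling, background, probe summary, filter, floor, blocks, variance model and arrays. Normexp used median spot signals. Fits without array 1 of every dose, and further settings without the high-background arrays, were chosen after seeing the data. Sequences and loci are RefSeq's (GRCm38.p6), matched by name, while the array header names another build.

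Same-numbered samples deviated together between 0.5 and 1 Gy (correlations of 0.837, 0.749 and 0.587), so those numbers were taken as pairs. Against 0 Gy they did not (-0.13 to 0.16). Array 1 is the high-background array of both irradiated doses, and array 2 of both lies on slide 3. The part of shared background and slides in these correlations was not tested.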

Additional observations from a re-analysis of the deposited data

How the results depend on the processing

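Members were tested in 10 of the 32 alternatives to the test over 9 arrays, and the detection filter left them out of the others, so a count of 0 there says nothing about them. In those 10, 0 members passed the threshold in any comparison. Over all miRNAs tested the count was 0 in each comparison under the 32 alternatives, except 3 of 180 miRNAs for 1 Gy against 0 Gy without array 1 of every dose and with the replicate block, none of them a member. With the replicate block over all 9 arrays the counts were 0, with 5, 7 and 0 miRNAs at an unadjusted p under 0.05 for 0.5 against 0 Gy, 1 against 0 Gy and 1 against 0.5 Gy (limma). For 1 Gy against 0.5 Gy, the replicate block in the arrays of those doses alone gave 0 of 446, and 6 of 179 over arrays 2 and 3, no member among them. The latter fit used a variance pooled over miRNAs. Without the high-background arrays, leaving out each array in turn gave 0 to 28 calls for 0.5 Gy and 0 to 30 for 1 Gy, the higher values without array 3 of 0 Gy.

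The difference of miR-23a-3p and of miR-30d-5p from 0 Gy was above 0 in all 32 settings. Many settings reuse the same levels and arrays and so repeat the same difference, and members were tested in 10 of them. The count is therefore not support for a change. miR-23b-3p turned at 0.5 Gy with slide as a block (-0.017) and within slide 1 (-0.045), and miR-30a-5p at 1 Gy within slide 1 (-0.071). Both settings keep the high-background arrays, on which no member was detected. The difference between 1 and 0.5 Gy without the high-background arrays had no stable sign, and the cause was not tested. With scaling over all probes it was -0.61 for miR-23a-3p and -0.56 for miR-23b-3p, beside a median over the 179 miRNAs of -0.69. It was -0.030 for miR-23a-3p after quantile normalization, and -0.11 for both with normexp. Without scaling it was 0.15 for miR-30a-5p and 0.24 for miR-30d-5p, beside a median of 0.19. For 0.5 Gy against 0 Gy these scalings moved the median of the 179 from 0.026 to 0.48 (over all probes) and -0.38 (none), and normexp moved it to 0.26. The 4 members stayed higher at 0.5 Gy, but they passed the filter through irradiated arrays alone, so this direction is not support for a change. Leaving out each array gave -0.24 to 0.28 for miR-23a-3p, -0.17 to 0.32 for miR-23b-3p and -0.49 to 0.40 for miR-30d-5p. The 3 arrays per dose limit the precision, and on the 2 high-background arrays every member lay under the detection limit.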

Other observations

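The 3 miR-30 members that were never detected gave their highest readings on the high-background arrays with both of their probes. Detected members also had probes at their highest on array 1 of 0.5 Gy. Those of miR-30d-5p read 23.7 and 24.8 there, and those of miR-30a-5p 18.2 and 18.3, while another miR-30a-5p probe read -0.11. The probes of miR-30b-5p read 44.2 and 38.3 on array 1 of 0.5 Gy and 17.8 and 14.5 on array 1 of 1 Gy, before scaling, and 2.49 or less on the other 7 arrays. The dimmer probe of miR-23b-3p went the other way, reading -7.38 and -2.81 on those arrays and 15.1 to 27.6 on arrays 2 and 3 of the irradiated doses.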
